A study of Mus musculus with 8 samples.

Results

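The genes described here act in fatty acid oxidation and in the peroxisome. They are 37 genes chosen by name, from the pathway, of 12394 genes named on the array. Of the 37, 17 belong to oxidation in mitochondria, 16 to the peroxisome (7 enzymes and transporters, and 9 peroxins, the proteins that build the organelle) and 4 are acyl-CoA synthetases, which serve both. A probe set, the group of short probes that measures 1 transcript, was annotated to 35 of them, with 63 probe sets of 22626 in all. The synthetases Acsl1 and Acsl3 were not analysed here. After a filter on dim signals, 33 genes and 49 of the 63 probe sets were tested, of 7191 genes tested in all. The mitochondrial gene Hadha and the peroxisomal gene Acox3 were measured but too dim to be tested. Of the 33, 29 reached their array's median on all 8 arrays.

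The samples were 4 captures of primitive erythroid precursors, the red cell precursors first made in the yolk sac, and 4 captures of yolk sac epithelial cells. Both were cut by laser from frozen sections of FVB/N mouse yolk sacs at embryonic day 9.5, with no treatment. Each pair came from shared slides, and each replicate pooled 2 to 4 yolk sacs of 2 litters. The epithelial cells, the study's control, were taken right after the erythroid cells. An erythroid cell needed 2 to 3 laser pulses and an epithelial cell 1.

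Mitochondria and peroxisomes share the work of burning fatty acids. An acyl-CoA synthetase first joins the fatty acid to coenzyme A. Long chains then enter mitochondria on carnitine and are shortened in a cycle of dehydrogenation, hydration, a further dehydrogenation and thiolysis, with electrons passed on by the electron transfer flavoprotein. Peroxisomes take very long and branched chains through ABC transporters, shorten them with enzymes of their own and hand the shorter products to mitochondria. The visceral endoderm, the epithelium of the yolk sac, takes up and secretes lipid for the embryo, while red cell precursors lose their mitochondria as they mature.

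The markers of both cell types followed the labels. In the erythroid captures 10 of 11 erythroid markers tested were higher and 0 were lower. Those higher included the transcription factor Klf1, with a log2 difference of 2.49 ± 0.30 (moderated SE of the limma fit to 4 pairs). Of 15 markers of visceral endoderm 13 were lower and 0 higher, among them the uptake receptor Cubn at -1.35 ± 0.14 and the transcription factor Hnf4a at -1.61 ± 0.35. Markers of each cell type were also measured in the other capture: the summed signal of the endoderm markers was 61057 to 96149.8 on the erythroid arrays, against 102542 to 167404 on the epithelial arrays, and that of the erythroid markers 36010.1 to 67841, against 7398 to 17868. Such sums include background, since probe sets under the background level also had signals above 0. The signal near the 3' end of the control transcript Gapdh exceeded that near its 5' end 38.7 to 44.4 times in pairs 1 and 2 (high-ratio pairs), against 7.0 to 17.4 times in pairs 3 and 4 (low-ratio pairs). This ratio grows as RNA shortens, so both sets of pairs are also given apart. The captures of a pair were not always alike. For Gapdh the ratio was 44.4, 38.7, 17.4 and 7.0 on the erythroid arrays of pairs 1 to 4, against 39.65, 39.05, 8.16 and 7.70 on the epithelial arrays. For the control transcript Actb it was 46.5, 63.1, 13.5 and 12.45, against 131.4, 76.5, 11.3 and 7.75. The part of these ratios in the differences within pairs was not tested.

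Of the peroxisomal enzymes and transporters among the 37 genes, 5 of 6 tested fell in the erythroid captures, and 3 with pair 3 or pair 4 left out, with no pair term or with no variance trend. Of 19 other peroxisomal proteins tested 2 fell and 2 rose. Most mitochondrial genes of fatty acid oxidation and all 9 peroxins were not called. Of the 33 genes tested with limma, 8 fell and 0 rose (adjusted p under 0.05). Over all genes tested, 8.87% fell and 6.02% rose. Counted by probe set, 10 of 49 fell and 0 rose, beside 7.69% and 6.19% of all probe sets tested. Over all probe sets 44.6% of the calls were higher in the erythroid captures, and 29.3% with each array centred on its median. At an unadjusted p under 0.05, 14 of the 33 were lower and 0 higher, beside 16.8% and 14.3% of all genes tested. The 8 were 5 of 6 peroxisomal enzymes and transporters (Ehhadh, Abcd3, Crot, Acaa1a and Scp2), 2 of 16 mitochondrial genes (Acaa2 and Hadh) and 1 of 2 acyl-CoA synthetases (Acsl4). The median difference was -1.05 on the log2 scale for the 6 enzymes, -0.41 for the 9 peroxins and -0.17 for the 16 mitochondrial genes, beside -0.005 for all genes tested. Median centring shifted all genes to a median of -0.14 and these medians to -1.25, -0.57 and -0.32. On the probe set that stood for each gene, all 6 enzymes and all 9 peroxins lay below 0 in each of the 4 scalings tried. Of the 16 mitochondrial genes 11 to 13 did. In such bulk captures, fewer cells of a type and less RNA per cell cannot be told apart.

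**Figure D1:**
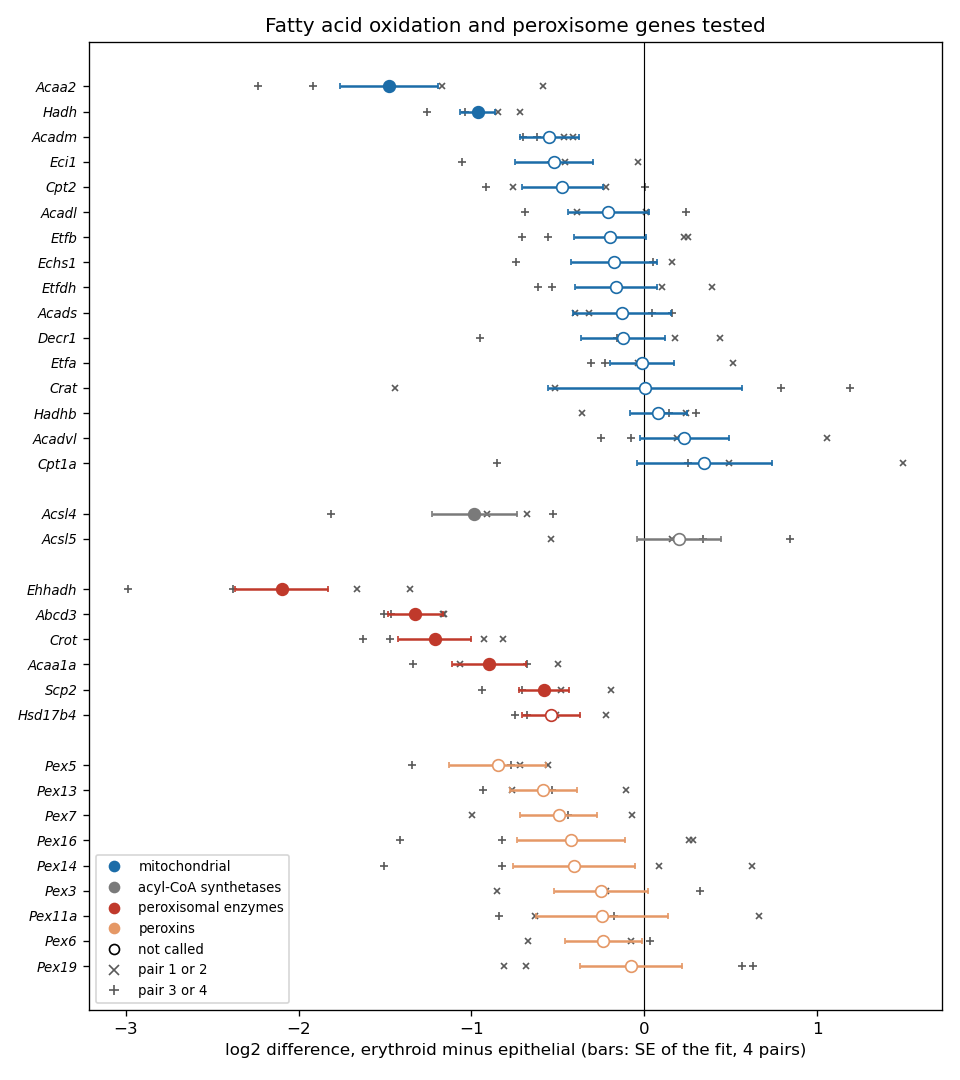
Log2 difference, erythroid minus epithelial, of the 33 genes tested (horizontal axis, log2 units), 1 row per gene, with the SE of the fit over 4 pairs as bars and the 4 single pairs as crosses and plus signs. Filled circles passed the test. The peroxisomal enzymes run from -2.10 for Ehhadh to -0.54 for Hsd17b4, and 12 of the 16 mitochondrial genes lie below 0.

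The count of 8 was 7 without pair 1 and without pair 2, 5 without pair 3 and 4 without pair 4. It was 4 with no pair term and 4 with no variance trend. Without the probe set types that can pick up related transcripts it was 5 (x, s and a, to which the main probe sets of Hadh, Acaa1a, Acaa2 and Scp2 belong). In the high-ratio pairs alone it was 6, beside 1024 of 11832 probe sets called in all. In the low-ratio pairs alone it was 16, beside 2824 of 11914, where the fit on all pairs called 1590 of 11449. With each of 3 other scalings the count of 8 was 10, and with the stricter filter, which asks for the array median on all 8 arrays, 11. The number that rose was 0 in each of these fits. Deposited signals of the groups did not overlap for 9 of the 33 genes, each lower in the erythroid captures, beside 7.48% of all genes tested for that direction. Separation the other way was found for 0 of the 33, beside 6.22%. A lower value in all 4 pairs was found for 14 of the 33, beside 20.3% of all genes, and a higher one in all 4 for 0, beside 17.9%. Values below 0 were found for 28 of the 33, beside 50.4% of all genes.

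Among the peroxisomal enzymes, Ehhadh fell most. It encodes the bifunctional enzyme that hydrates and then oxidises the shortened chain in peroxisomes. Its signals were 304, 578, 462 and 512 on the erythroid arrays of pairs 1 to 4, against 946, 1563, 3571 and 2588 on the epithelial arrays. The highest erythroid array stood below the lowest epithelial one. On the log2 scale Ehhadh fell by 2.10 ± 0.27 (moderated SE, limma adjusted p = 0.00148), which is 4.28-fold. Over the 4 pairs its log2 difference ran from -2.989 to -1.355. Mean signals were 464 ± 117 in erythroid and 2167 ± 1155 in epithelial captures (SD, n = 4 each). The high-ratio pairs gave -1.51 and the low-ratio pairs -2.69.

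Abcd3, the transporter that carries acyl-CoA through the peroxisomal membrane, had signals of 1474, 1308, 1841 and 1971 on the erythroid arrays, against 3528, 2981, 5267 and 5231 on the epithelial arrays. No erythroid array reached the lowest epithelial one, and the log2 difference ran from -1.51 to -1.16 over the 4 pairs. Abcd3 fell by 1.32 ± 0.16 (adjusted p = 0.00133), or 2.5-fold. Crot, which moves shortened chains onto carnitine so that they can leave the peroxisome, had signals of 698, 765, 768 and 553 on the erythroid arrays, against 1332, 1427, 2392 and 1528 on the epithelial arrays. Again the groups did not overlap, and the epithelial array of pair 3 stood apart from the other epithelial arrays. Crot fell by 1.21 ± 0.21 (adjusted p = 0.00485), or 2.32-fold. The calls of Ehhadh, Abcd3 and Crot held in all 17 alternative fits, with values between -2.59 and -1.54, -1.52 and -1.22, and -1.50 and -0.90.

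Acaa1a encodes the thiolase that makes the last cut of the peroxisomal cycle. Its main probe set had signals of 779.8, 552, 610.0 and 509 on the erythroid arrays, against 1081, 1246, 1539 and 813 on the epithelial arrays, with no overlap. It fell by 0.90 ± 0.21 (adjusted p = 0.0198), and its other probe set, also lower in all 4 pairs, fell by 1.99 (adjusted p = 0.0019). Both probe sets are of a type that can pick up related transcripts, and the near-identical paralogue Acaa1b is on the array as well, so the share of each gene is uncertain. A probe set annotated to both genes fell by 1.42 (adjusted p = 0.00964). The call of Acaa1a ended without pair 2 (adjusted p = 0.062), without pair 3 (0.0846), without pair 4 (0.0663), with no pair term (0.114) and with no variance trend (0.0674).

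Scp2 encodes both a peroxisomal thiolase for branched chains and a lipid carrier. Its brightest probe set had signals of 5504, 7364, 4534 and 3954 on the erythroid arrays, against 8066, 7414, 9601 and 6307 on the epithelial arrays. The erythroid value of pair 2 lay close to the epithelial one of the same pair, and the groups overlapped. Scp2 fell by 0.58 ± 0.14 (adjusted p = 0.0235). Its 3 other probe sets gave -0.69, -0.55 and -0.43 and were not called (adjusted p = 0.101, 0.273 and 0.186). The call on the main probe set ended in 9 of 17 alternative fits, among them those without pair 3 (adjusted p = 0.124), without pair 4 (0.105) and on the mean of its probe sets (0.0756).

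Hsd17b4, the other bifunctional enzyme of peroxisomes, which handles branched and very long chains, did not pass. Its main probe set had signals of 2307, 1840.5, 1712 and 1697 on the erythroid arrays, against 2792, 2662, 3025 and 2773 on the epithelial arrays. The groups did not overlap, yet the difference was -0.54 ± 0.17 (adjusted p = 0.0546). It passed with the deposited scaling (adjusted p = 0.0391), with median centring (0.0419) or 75th percentile centring (0.0425), and with the stricter filter (0.0464). A second probe set gave -0.61 (adjusted p = 0.199), with pair 1 above 0 and the other 3 pairs below. The oxidase Acox3, which starts the cycle on branched chains, lay between 9.58 and 58.6 on the erythroid and between 23.1 and 56.6 on the epithelial arrays, under the background level on all 8.

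**Figure D2:**
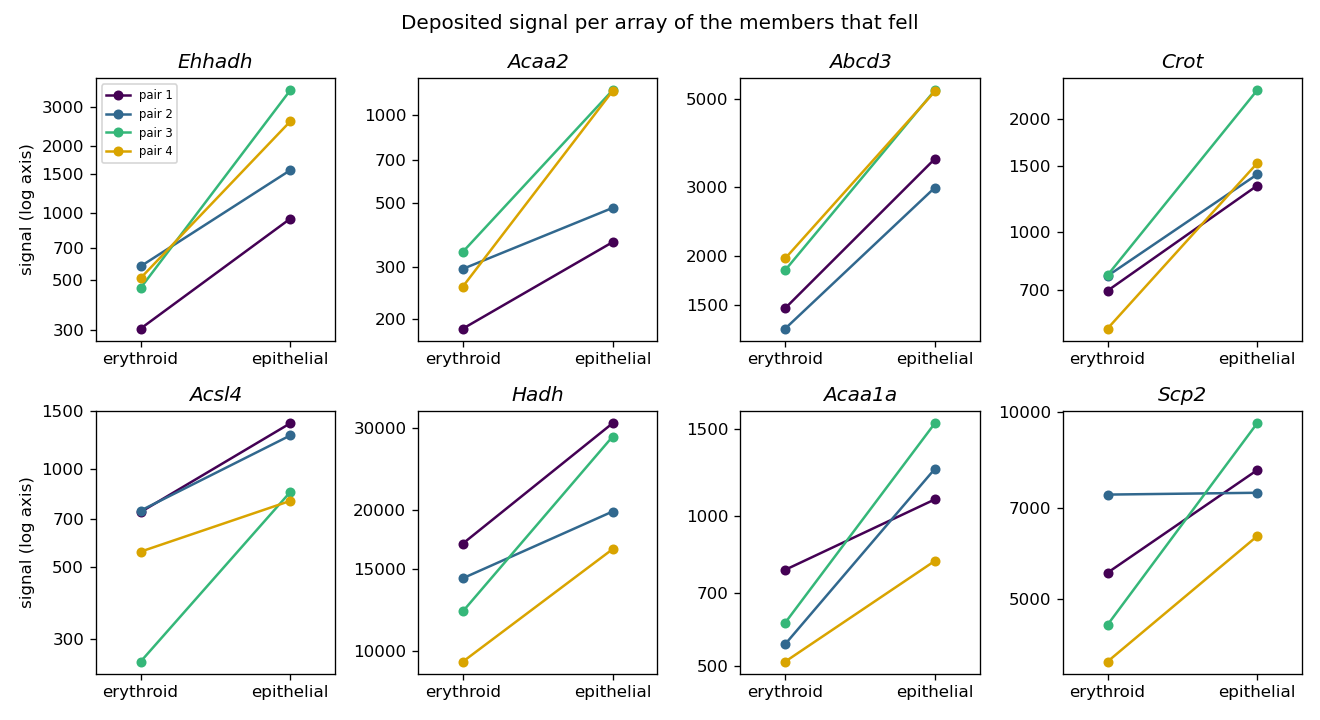
Deposited signal (vertical axis, array units, logarithmic) of the 8 genes that fell, with 1 panel per gene and a line joining the erythroid array (left) and the epithelial array (right) of each of the 4 pairs. Every line rises to the right, and that of Scp2 in pair 2 is nearly flat at 7364 and 7414.

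Promoters are shown for 3 peroxisomal genes that fell and for Hadh, the mitochondrial gene with the smallest adjusted p, since these genes moved in the same direction. Those of Abcd3 and Scp2, peroxisomal genes that also fell, are not shown. The sequences run from 250 bases before to 50 after the annotated start, from RefSeq on GRCm38.p6, of which 32 of the 37 genes had at least 1. Capitals mark matches to the motifs searched, on either strand. The GC box, to which Sp1 and related factors bind, was searched as GGGCGG. The letters taken for the core site of nuclear receptors, such as PPAR alpha, were AGGTCA. For the GATA motif, to which the erythroid factor GATA1 binds, the search took AGATAA. The fourth motif was the CCAAT box, bound by NF-Y, searched by the letters of its name.
Ehhadh, chr16:21787785-21788084, minus strand: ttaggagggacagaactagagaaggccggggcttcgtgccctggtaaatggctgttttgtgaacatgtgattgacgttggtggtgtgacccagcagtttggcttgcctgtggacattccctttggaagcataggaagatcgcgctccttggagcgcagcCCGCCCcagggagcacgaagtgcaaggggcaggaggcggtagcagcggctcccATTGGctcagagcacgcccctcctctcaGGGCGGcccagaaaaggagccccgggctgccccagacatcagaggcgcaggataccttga
Crot, chr5:8997097-8997396, minus strand: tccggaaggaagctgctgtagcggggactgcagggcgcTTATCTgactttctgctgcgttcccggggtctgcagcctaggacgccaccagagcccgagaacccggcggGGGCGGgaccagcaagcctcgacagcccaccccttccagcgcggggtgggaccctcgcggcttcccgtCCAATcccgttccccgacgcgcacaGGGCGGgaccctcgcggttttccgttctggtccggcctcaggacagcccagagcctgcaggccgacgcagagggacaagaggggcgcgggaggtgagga
Acaa1a, chr9:119341044-119341343, plus strand: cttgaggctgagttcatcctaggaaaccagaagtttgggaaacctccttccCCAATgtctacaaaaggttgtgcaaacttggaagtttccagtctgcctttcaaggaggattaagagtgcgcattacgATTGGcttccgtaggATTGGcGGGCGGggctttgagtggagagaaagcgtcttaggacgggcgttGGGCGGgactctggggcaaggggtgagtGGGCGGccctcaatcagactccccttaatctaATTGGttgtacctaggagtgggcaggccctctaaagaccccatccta
Hadh, chr3:131272052-131272351, minus strand: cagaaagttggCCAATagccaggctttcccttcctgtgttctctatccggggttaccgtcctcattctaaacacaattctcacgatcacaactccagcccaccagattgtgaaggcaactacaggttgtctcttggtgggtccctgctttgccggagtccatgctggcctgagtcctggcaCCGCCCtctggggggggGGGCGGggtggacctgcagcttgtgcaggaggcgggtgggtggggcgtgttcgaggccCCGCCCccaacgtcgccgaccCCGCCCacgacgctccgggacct
A GC box was found for 26 of the 32 genes, beside 38.2% of all 27025 genes in the table, and a CCAAT box for 14, beside 41.1%. The promoters of Abcd3 held none of these letters. Of the 7 genes that fell and had a promoter, 6 held a GC box and 4 a CCAAT box. Of the 21 tested genes that were not called, 16 and 8 did. PPAR alpha, a fatty acid sensor, binds with its partner RXR to a direct repeat of 2 core sites with 1 base between them. Exact letters of this repeat were found for 0 of the 32 and for 0.0481% of all genes. So few genes hold an exact match in these short sequences that the 0 cannot tell whether the 32 have such an element. A single core site was found for 5 of the 32 (Acadm, Acadvl, Cpt1a, Echs1 and Scp2), beside 18.1% of all genes, and a GATA motif for 4 (Acadvl, Crot, Pex14 and Pex16), beside 12.7%. A match is a match of letters only. The shares of all genes cover every gene with a promoter there, expressed here or not, so they are no like background for these genes.

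Peroxins were not called, although all 9 had values below 0 on their main probe sets. With limma 0 of 9 passed in either direction, and at an unadjusted p under 0.05 3 were lower and 0 higher. Pex5, the receptor that brings most enzymes into the peroxisome, had signals of 118, 154, 174 and 161 on the erythroid arrays, against 162, 249, 263 and 408 on the epithelial arrays. The erythroid arrays were lower in all 4 pairs, with a small overlap between groups, and the difference was -0.85 ± 0.28 (adjusted p = 0.0696). Pex7, the receptor for the few enzymes with the other import signal, thiolase among them, was at -0.49 ± 0.22 (adjusted p = 0.167). Pex13 and Pex14 form the dock for both receptors. Pex13 had signals of 1551, 1131, 1284 and 1005 on the erythroid arrays, against 1682, 1995, 1924 and 1919 on the epithelial arrays. These groups did not overlap, and the difference was -0.58 ± 0.20 (adjusted p = 0.0711). Pex5 passed with the stricter filter (adjusted p = 0.027), and Pex13 passed with median centring (0.0365) or 75th percentile centring (0.0441).

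Pex14 and Pex16 took opposite signs in the sets of pairs. Pex14 had signals of 178, 147, 210.5 and 361 on the erythroid arrays, against 142, 114, 565 and 629 on the epithelial arrays. Pex16, which with Pex3 and Pex19 places proteins in the peroxisomal membrane, had 346, 229.5, 241 and 379 on the erythroid arrays, against 259.6, 218, 607 and 664 on the epithelial arrays. The erythroid array was the higher one in both high-ratio pairs and the lower one in both low-ratio pairs, for both genes. Their mean differences were 0.35 and -1.17 for Pex14, and 0.27 and -1.12 for Pex16, and the interaction did not pass (limma adjusted p = 0.207 and 0.174). The value of 0.35 is uncertain. Pex14 differed by only 0.087 in pair 1, and in pair 2 its epithelial signal lay under the array's background level of 132.6. Fitted on the low-ratio pairs alone, both genes passed (limma adjusted p = 0.0068 and 0.00891). That fit used only 4 arrays and called 2824 of 11914 probe sets in all, beside 1590 of 11449 with all pairs. Pex19, which carries membrane proteins to the organelle, ran the other way, with -0.75 in the high-ratio and 0.59 in the low-ratio pairs (interaction adjusted p = 0.162). The remaining peroxins were not called, with Pex3 at -0.25 ± 0.27, Pex6, an ATPase that recycles the import receptor, at -0.24 ± 0.22, and Pex11a, which acts in peroxisome division, at -0.24 ± 0.38 (adjusted p = 0.589, 0.522 and 0.712). Pex11a lay above background on 2 of 4 erythroid arrays. Signals of Pex7 ranged from 319 to 768 on the erythroid arrays, against 464 to 1082 on the epithelial arrays. Pex19 ranged from 232 to 692 on the erythroid arrays, against 286 to 439 on the epithelial arrays. Pex3 gave 171 to 292 on the erythroid arrays, against 159.8 to 338 on the epithelial arrays. A second probe set of Pex3 went the other way, at 0.92 ± 0.53 (limma adjusted p = 0.273), above 0 in 3 pairs and below in 1. Ranges overlapped in each of the peroxins other than Pex13. Pex6 gave 323 to 462 on the erythroid arrays, against 282 to 602 on the epithelial arrays, and Pex11a 87.5 to 193 on the erythroid arrays, against 94.9 to 216 on the epithelial arrays.

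In mitochondria, no gene of the carnitine shuttle was called. Cpt1a, which loads long chains onto carnitine and sets the pace of oxidation, had signals of 197, 281, 256 and 74 on the erythroid arrays, against 120.1, 123, 182 and 117 on the epithelial arrays. The groups overlapped, and the 4 pairs differed among themselves: it was higher in the erythroid array in 3 pairs and lower in pair 4, at 0.35 ± 0.39 (adjusted p = 0.599). Cpt1a lay above background on 3 of 4 arrays of each group. The erythroid array of pair 4 and the epithelial array of pair 2 fell under it. Its other probe sets gave -0.044 and 0.12. Cpt2, which takes the chains off carnitine inside, was at -0.47 ± 0.24 (adjusted p = 0.209), with signals of 257 to 625 on the erythroid arrays, against 265 to 828 on the epithelial arrays. Crat, a transferase for short chains found in both organelles, had signals of 82.7, 10.2, 243 and 234 on the erythroid arrays, against 99.4, 48.9, 81.4 and 91.7 on the epithelial arrays and lay above background on 2 of 4 arrays of each group. Its difference was 0.006 ± 0.56 (adjusted p = 0.995), with -0.98 in the high-ratio and 0.99 in the low-ratio pairs.

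The acyl-CoA dehydrogenases make the first oxidation and differ in the chain length they accept. Acadm, for medium chains, had signals of 1219, 1460.5, 1496 and 1402 on the erythroid arrays, against 1658, 2049.9, 2375 and 2287 on the epithelial arrays. It was lower in all 4 pairs with no overlap between groups, and its difference of -0.55 ± 0.17 fell short of the threshold (adjusted p = 0.0543). It passed with the deposited scaling (0.0418), with median centring (0.0419) or 75th percentile centring (0.0441), with the stricter filter (0.047) and in the fit on gene means (0.0382). Acadvl for very long chains was at 0.23 ± 0.26, Acadl for long chains at -0.21 ± 0.23 and Acads for short chains at -0.13 ± 0.28, and in each the groups overlapped (adjusted p = 0.597, 0.603 and 0.801). Acadvl ranged from 264 to 781 on the erythroid arrays, against 203 to 940.2 on the epithelial arrays. The range of Acadl was 288 to 598 on the erythroid arrays, against 343 to 608 on the epithelial arrays. Acads ran from 132 to 254 on the erythroid arrays, against 153 to 194 on the epithelial arrays.

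Later steps of the mitochondrial cycle held both genes that fell. Hadh, the dehydrogenase for short and medium hydroxyacyl chains, had signals of 16985, 14319.7, 12170.1 and 9502 on the erythroid arrays, against 30676, 19876, 28728 and 16515 on the epithelial arrays on its brightest probe set. Each erythroid array was lower than its partner, and the groups overlapped only in that the epithelial array of pair 4 lay just under the erythroid array of pair 1. Hadh fell by 0.96 ± 0.10 (adjusted p = 0.00102), and the call held in all 17 alternative fits. A second probe set, of a type specific to 1 transcript, had signals of 1448, 1228, 1520.5 and 2575 on the erythroid arrays, against 2964, 2627, 4306 and 5776 on the epithelial arrays. Here the groups did not overlap, and Hadh fell by 1.18 (adjusted p = 0.00204). Another probe set gave -0.18 (adjusted p = 0.67).

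Acaa2, the thiolase of mitochondria, had signals of 185, 296, 339 and 258 on the erythroid arrays, against 366, 479, 1213 and 1205 on the epithelial arrays. The epithelial arrays of the low-ratio pairs stood far above the other 6 arrays, and the groups did not overlap. Acaa2 fell by 1.48 ± 0.29 (adjusted p = 0.00791). The high-ratio pairs gave -0.88 and the low-ratio pairs -2.08. The call ended without pair 4 (adjusted p = 0.0591), with no pair term (0.056), with no variance trend (0.0523), in the high-ratio pairs alone (0.103), on the mean of its probe sets (0.109) and without x, s and a probe sets (0.428). A second probe set gave -0.90 (adjusted p = 0.422), above 0 in both high-ratio pairs and below 0 in both low-ratio pairs.

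The other genes of the cycle were not called. The hydratase Echs1 was at -0.17 ± 0.25, and Hadhb, the thiolase subunit of the trifunctional protein for long chains, at 0.082 ± 0.16 (adjusted p = 0.688 and 0.778). Hadhb lay below 0, at -0.17 and -0.018, with median or 75th percentile centring of the arrays. Its partner subunit Hadha rose above background on 1 of 8 arrays. Eci1 and Decr1, which shift and reduce the double bonds of unsaturated chains, were at -0.52 ± 0.23 and -0.12 ± 0.24 (adjusted p = 0.151 and 0.776). Etfa and Etfb, the subunits of the electron transfer flavoprotein, were at -0.014 ± 0.18 and -0.20 ± 0.21, and Etfdh, which passes the electrons to the respiratory chain, at -0.16 ± 0.24 (adjusted p = 0.971, 0.576 and 0.691). Signals of Echs1 ranged from 164 to 452 on the erythroid arrays, against 154 to 583 on the epithelial arrays. Hadhb ranged from 2344 to 4674 on the erythroid arrays, against 2026 to 4922 on the epithelial arrays. Eci1 and Decr1 had 327 to 875 on the erythroid arrays, against 416 to 1846 on the epithelial arrays, and 801 to 1079 on the erythroid arrays, against 707 to 1559.9 on the epithelial arrays. Of these 4 genes Eci1 had the lowest log2 difference, below 0 in all 4 pairs. Etfa ranged from 1935 to 2479.7 on the erythroid arrays, against 1732 to 2664 on the epithelial arrays, and Etfdh from 461 to 791 on the erythroid arrays, against 322 to 1167 on the epithelial arrays. Etfb had signals of 1276, 1414, 2818 and 2325 on the erythroid arrays, against 1062, 1231, 4369 and 3744 on the epithelial arrays. After normalisation the erythroid array was above its partner in both high-ratio pairs and below it in both low-ratio pairs, and Etfdh likewise.

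Of the acyl-CoA synthetases, Acsl4, which prefers arachidonic acid, fell and Acsl5 was not called. Acsl4 had signals of 736, 744, 256 and 556 on the erythroid arrays, against 1379, 1265, 848 and 796 on the epithelial arrays. The erythroid array of pair 3 was the lowest, and the groups did not overlap. Acsl4 fell by 0.98 ± 0.25 (adjusted p = 0.024). The call ended without pair 1 (adjusted p = 0.0501), without pair 3 (0.089), without pair 4 (0.0544), with no pair term (0.205) and with no variance trend (0.0839). A second probe set of Acsl4, lower in all 4 pairs, gave -1.54 and was not called (limma adjusted p = 0.102). It reached the array median on 0 of 4 erythroid arrays. Another was too dim to be tested. Acsl5, which lies on mitochondria and the endoplasmic reticulum, had signals of 972, 865, 1147 and 919 on the erythroid arrays, against 826, 1317, 657 and 729.9 on the epithelial arrays, with overlap, and a difference of 0.20 ± 0.24 (adjusted p = 0.624).

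Over the 33 genes, the median difference was -0.36 in the high-ratio and -0.57 in the low-ratio pairs, beside -0.029 and 0.007 over all genes tested. For the 6 peroxisomal enzymes these medians were -0.83 and -1.25, for the 9 peroxins -0.43 and -0.51, and for the 16 mitochondrial genes -0.12 and -0.40. The interaction of cell type and pair set passed for 0 of the 33 genes with limma, and for 2.0% of all genes tested. At an unadjusted p under 0.05 it was 7 of the 33. The share of all genes at that threshold was not counted, so the 7 cannot be set against a background. The 3' to 5' ratios and the contrast in marker levels moved with the pair sets too: the endoderm markers had medians of -1.09 and -2.03, the erythroid markers 1.27 and 3.23, and the mesenchyme and mesothelium markers 0.34 and 2.39, in that order of sets. Their part in the differences between sets was not tested.

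**Figure D3:**
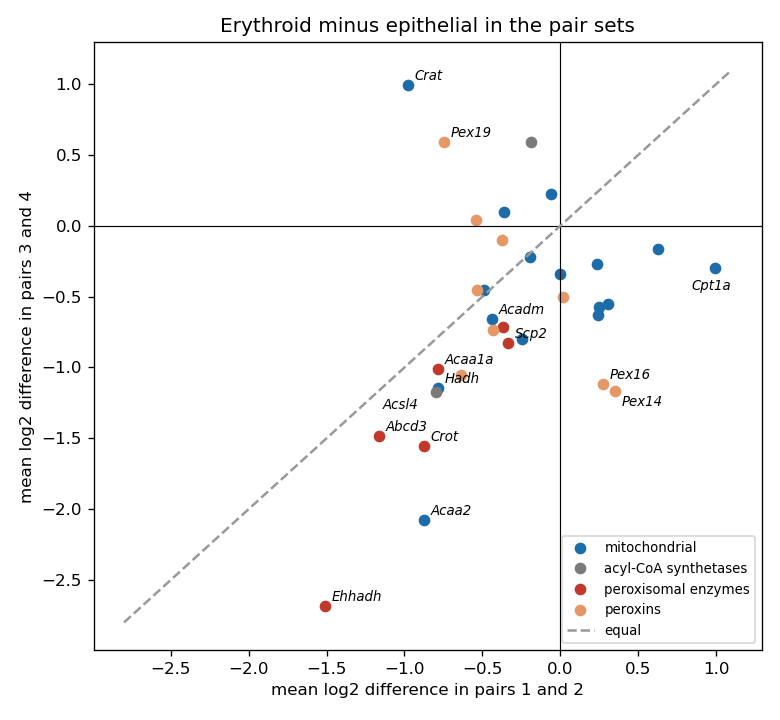
Mean log2 difference, erythroid minus epithelial, of the 33 genes in pairs 1 and 2 (horizontal axis) and in pairs 3 and 4 (vertical axis), coloured by group, with a dashed line where both are equal. All 6 peroxisomal enzymes lie in the lower left, with Ehhadh at -1.51 and -2.69, while Crat and Pex19 are among the genes in the upper left, and Pex14 and Pex16 are among those in the lower right.

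Further genes of both pathways were read from lists chosen by function. Of 19 other peroxisomal enzymes and membrane proteins tested, 2 fell and 2 rose, with a median of -0.55 and 16 values below 0. Slc27a2, which activates very long chains at the peroxisome and takes up fatty acids, fell by 1.90 ± 0.35 (adjusted p = 0.00625). The high-ratio pairs gave -0.97 and the low-ratio pairs -2.84 for Slc27a2, and this interaction passed (limma adjusted p = 0.0135). Phyh, which starts the breakdown of phytanic acid, fell by 1.34 ± 0.34 (adjusted p = 0.0268). Gstk1, a glutathione transferase of peroxisomes and mitochondria, rose by 1.36 ± 0.36 and Nudt19, a hydrolase of coenzyme A species, by 1.08 ± 0.27 (adjusted p = 0.0295 and 0.0234). Only 2 of 4 epithelial arrays held Gstk1 above background, which leaves its fold uncertain. Catalase, Cat, which removes the hydrogen peroxide made by peroxisomal oxidases, was at -0.13 ± 0.18 (adjusted p = 0.667), and Far1, which makes fatty alcohol for ether lipids, at -0.082 ± 0.20 (adjusted p = 0.823). Mean signals of Cat were 4229.9 ± 1181 in erythroid and 5208 ± 2777 in epithelial captures (SD, n = 4 each). The 2 other peroxins tested, Pex2 and Pex26, were at 0.39 ± 0.21 and -0.49 ± 0.31 (adjusted p = 0.255 and 0.335).

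Of 9 other genes of mitochondrial fatty acid oxidation, 0 passed with limma (1 lower and 0 higher at an unadjusted p under 0.05), at a median of -0.33. Acat1, which splits or joins acetyl groups, was at -0.33 ± 0.17, and Hsd17b10, a dehydrogenase, at 0.41 ± 0.19 (adjusted p = 0.218 and 0.173). The citric acid cycle, which burns the acetyl-CoA that oxidation yields, gave 1 of 18 lower and 0 higher at a median of -0.29. Dlst, a subunit of the oxoglutarate dehydrogenase, fell by 0.93 ± 0.20 (adjusted p = 0.0123), while Mdh2, a malate dehydrogenase, and Sucla2, a subunit of succinyl-CoA synthetase, were at -0.28 ± 0.096 and -0.069 ± 0.12 (adjusted p = 0.0766 and 0.751). All 18 values were below 0 in each of the 4 scalings.

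Of the regulators, 0 of 5 tested passed (2 lower and 0 higher at an unadjusted p under 0.05). The coactivator Med1 was at 0.03 ± 0.25 and Rxrb, a partner of nuclear receptors, at -0.29 ± 0.28 (adjusted p = 0.952 and 0.547). Ppara, the nuclear receptor that turns on peroxisomal and mitochondrial oxidation in liver, was too dim to be tested, above background on 0 of 4 erythroid and 2 of 4 epithelial arrays. Its coactivator Ppargc1a was also too dim on each of its 5 probe sets, which rose above background on 0 of 4 erythroid arrays and on at most 2 of 4 epithelial arrays.

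**Figure D4:**
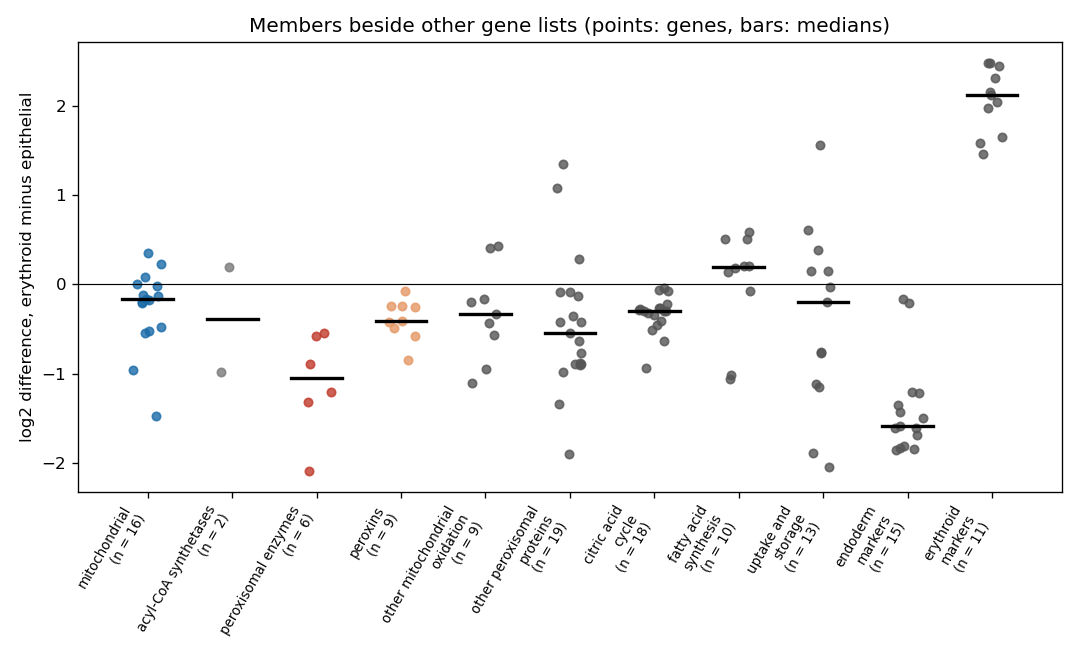
Log2 difference, erythroid minus epithelial (vertical axis), of each gene tested in the 4 groups of genes described here (coloured) and in 7 other lists (grey), with the median of each list as a bar. The peroxisomal enzymes have a median of -1.05, between the other peroxisomal proteins at -0.55 and the endoderm markers at -1.59, and the erythroid markers stand at 2.12.

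Markers of further cell types moved with the comparison. Of 11 mesenchyme and mesothelium markers tested 7 rose and 0 fell, with a summed signal of 39765 to 61879 on the erythroid arrays, against 8932 to 35418 on the epithelial arrays, and medians of 0.34 in the high-ratio and 2.39 in the low-ratio pairs. Of 7 megakaryocyte markers 4 rose, of 6 endothelial markers 1 rose, and of 3 macrophage markers 0 passed (1 higher and 0 lower at an unadjusted p under 0.05), with 0 lower in each list. The genes that fell here moved with the 15 endoderm markers, all of which had values below 0. The part of any of these cell types in the values of the fatty acid oxidation and peroxisome genes was not tested.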

How the data were processed

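The authors deposited 1 intensity per probe set and array on a linear scale, from Affymetrix arrays hybridised with RNA of 8 captures (10 to 39 ng, amplified in a two-cycle protocol, per the labels' protocols). GCOS, MAS5 and affy are named in the submitters' processing notes, without versions, which the sources used here do not give. In the deposited table the mean after trimming 2% at each end, averaged over the 8 arrays, was 500. Detection calls were not used here.

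An offset of 8.14, the 10th percentile of the deposited intensities, was added before log2. It shrinks differences of dim genes. Array medians then spanned 0.59, so arrays were quantile normalised. Probe sets at or above their array's median on at least 4 of 8 arrays were tested, 11449 of 22626. The fit used R 4.3.3 and limma 3.58.1 (lmFit, then eBayes with its trend option). The model held pair and cell type, which left 3 residual degrees of freedom. Fits on fewer pairs left fewer, so their p-values lean more on the variances of other probe sets. The SE given with a log2 difference is moderated: limma draws each variance toward those of other probe sets. It is therefore not the SE of the pair values alone. Two-sided p-values were adjusted by Benjamini-Hochberg across every tested probe set, and 0.05 was the threshold. Differences are erythroid minus epithelial. Where several probe sets of a gene were tested, the one with the highest mean stood for it. Probe sets shared by several genes stood for none. As background level served, on each array, the 95th percentile over 117 probe sets of genes such as odorant receptors and beta-defensins. The number of arrays, 4 a group, limits precision. The labels call these biological replicates. With pair in the model, level differences between pools of yolk sacs do not enter the p-values. These rest on how the difference within a pair varied between pools, moderated by other probe sets.

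The pairing comes from the labels' protocols, and same-numbered samples deviated together from their group means (correlations of 0.44, 0.34, 0.31 and 0.54 in pairs 1 to 4). The genes and lists were chosen with earlier results of these data known. Every one of the 37 genes is accounted for. From each other list, the 3 called genes with the largest change each way and the 2 uncalled with the largest signal could be named. Ppara, Ppargc1a and some markers were fixed by name. The 17 alternatives covered scaling, offset, filter, pair term, variance trend, pairs used and choice of probe sets. The procedure was also run on simulated data with independent noise in each probe set. That setting holds no correlated genes and no unequal RNA quality, so it does not give the error rate in these data.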

Additional observations from a re-analysis of the deposited data

Results flagged for a closer look

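Of 66 groups of 4 arrays examined (33 genes in both cell types), 1 held an array far from the others, where about 5% of groups would by chance. In Crot the epithelial array of pair 3 had a signal of 2392, against 1332 to 1528 on the other 3 epithelial arrays. The gap to the nearest took up 0.897 of the group's range on the normalised log2 scale. Without pair 3 Crot was at -1.08 (adjusted p = 0.025).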

How the results depend on the processing

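The 8 genes that fell had a value below 0 in all 17 alternatives (16 for Acaa1a, which has no probe set outside the x, s and a types). The calls of Ehhadh, Abcd3, Crot and Hadh held in all of them. The count of 8 ran from 4 to 7 with 1 pair left out. It was 4 with no pair term and with no variance trend, 5 without x, s or a types, 6 in pairs 1 and 2 alone and 16 in pairs 3 and 4 alone. The 5 peroxisomal genes were 3 with no pair term, with no variance trend and without these types, 4 in pairs 1 and 2, 10 in pairs 3 and 4, and 3 to 5 with 1 pair left out. The 2 mitochondrial genes were 1 with no pair term, with no variance trend, in pairs 1 and 2 and without these types, 5 in pairs 3 and 4, and 1 to 2 with 1 pair left out. The count that rose was 0 throughout (0 also at an unadjusted p under 0.05 in the reported limma fit). Calls over all probe sets numbered 1590 of 11449 tested, 445 with no pair term and 518 with no variance trend. They numbered 1024 of 11832 in pairs 1 and 2, and 2824 of 11914 in pairs 3 and 4. On gene means they were 1034 (7191 tested), without the x, s and a types 896 (7153 tested), and with 1 pair left out 556 to 1536. Of the 1590 calls 44.6% were higher in the erythroid captures, and 29.3% of the calls with arrays centred on the median.

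Values changed sign for 16 genes, none of which was called under that alternative. In pairs 1 and 2 alone these were Hadhb at -0.064, Etfa at 0.25, Etfb at 0.25, Decr1 at 0.32, Acsl5 at -0.20, Etfdh at 0.25, Pex16 at 0.25, Echs1 at 0.004, Pex14 at 0.32 and Pex11a at 0.005. In pairs 3 and 4 alone they were Acadvl at -0.16, Pex19 at 0.60, Pex3 at 0.045, Acads at 0.11 and Cpt1a at -0.32. On the mean of probe sets they were Hadhb at -0.14 and Pex3 at 0.34. Centred on the median it was Hadhb at -0.17. Centred on the 75th percentile it was Hadhb at -0.018. Without x, s and a probe sets it was Hadhb at -0.37. With the deposited scaling it was Acads at 0.03. With an offset of 1 it was Crat at -0.11. With 1 pair left out the values lay for Etfa between -0.19 and 0.083, Decr1 between -0.31 and 0.15, Acsl5 between -0.016 and 0.45, Acadvl between -0.042 and 0.39, Pex19 between -0.30 and 0.17, Echs1 between -0.29 and 0.016, Cpt1a between -0.033 and 0.71 and for Crat between -0.38 and 0.51. Over all genes and alternatives, 475 values kept their direction and their side of the threshold, 25 lost a call, 20 gained one and 32 changed sign. Where fewer pairs were used, fewer samples entered the fit. Otherwise the cause was not tested. Dim probe sets limit Hadha, Acox3, Crat, Pex11a, Ppara and Ppargc1a, and dim signals on some arrays limit Cpt1a and Pex14.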

Other observations

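Genes that bind, take up and store fatty acids split. Of 13 tested, 5 fell and 2 rose in the erythroid captures, at a median of -0.19, beside 8.87% and 6.02% of all genes. The binding proteins parted by kind. Fabp1 and Fabp2, those of liver and gut, fell by 2.05 ± 0.26 and 1.89 ± 0.21 on the log2 scale (limma adjusted p = 0.00144 and 0.00102), while Fabp4 and Fabp5, those of fat cells and of skin, rose by 1.56 ± 0.24 and 0.61 ± 0.11 (adjusted p = 0.00333 and 0.00502). Fabp4 had signals of 842, 6958, 1488 and 200.3 on the erythroid arrays of pairs 1 to 4, against 380.0, 1969, 304 and 47.5 on the epithelial arrays. The erythroid array was higher in all 4 pairs, but levels differed widely between pairs and the groups overlapped. Dgat2, which makes triglyceride, fell by 1.15 ± 0.24 (adjusted p = 0.0114). Dbi, an acyl-CoA carrier, fell by 0.76 ± 0.21 and the lysosomal lipase Lipa by 0.77 ± 0.22 (adjusted p = 0.0382 and 0.042), both named after their values were seen. In pairs 1 and 2 against pairs 3 and 4, Fabp1 was at -1.38 and -2.71 and Dbi at -0.20 and -1.32, and both interactions passed (limma adjusted p = 0.0239 and 0.0164). Plin2, which coats lipid droplets, and Lpl, the lipase of the vessel wall, were at 0.15 ± 0.13 and 0.15 ± 0.31 (adjusted p = 0.495 and 0.791). Fabp4 is also used by endothelium, whose markers had a median of 0.45, and their part in its value was not tested.

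Of 10 genes of fatty acid synthesis 1 fell and 0 rose, at a median of 0.19. Elovl1, which lengthens very long chains, fell by 1.06 ± 0.18 (adjusted p = 0.00447). Acly, which supplies acetyl-CoA, and Elovl5 were at 0.21 ± 0.14 and 0.20 ± 0.19 (adjusted p = 0.349 and 0.515). Oxct1, the enzyme with which tissues use ketone bodies, had signals of 1037, 847, 997 and 1009 on the erythroid arrays of pairs 1 to 4, against 594, 397, 336 and 239 on the epithelial arrays. The groups did not overlap, and Oxct1 rose by 1.33 ± 0.24 (adjusted p = 0.00563). Of its 3 other probe sets, 1 was called, at 1.01 (adjusted p = 0.0173), and 2 were not, at 0.26 and 0.34 (adjusted p = 0.746 and 0.472). Bdh1, which interconverts ketone bodies, was at 0.22 ± 0.28 (adjusted p = 0.646).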
